A study of Mus musculus with 2 samples.

Results

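Fibroblasts gated on Col15a1, Slc6a13, Cygb and Fam210b made up 756 of the 19774 cell barcodes in 2 single-cell libraries of the mouse cerebral cortex. Of these, 666 came from 8336 barcodes of the N-PRα-KO library and 90 from 11438 barcodes of the WT library. A cell was kept with at least 300 detected genes and at most 25% mitochondrial unique molecules (UMIs, counted transcripts). It counted as a fibroblast when Col1a1, Col1a2 and Col3a1 together held at least 0.4% of its UMIs. Cells with 0.2% or more of Rgs5, Kcnj8 and Acta2 (mural genes) or 0.1% or more of Lhfpl3, Tnr and Cacng4 (oligodendrocyte precursor genes) were left out, as were dividing cells with 3 or more UMIs of 6 division genes. Members were thus chosen by measured levels in these same cells: a member had more UMIs of the 4 gate genes than of Gjb2, Gjb6 and Slc6a20a. The remaining cells, in which the second sum was larger, are called connexin-rich fibroblasts here and serve as the comparison within each library.

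The N-PRα-KO library came from mice of the genotype Nestin-Cre;Pdgfraflox/flox and the WT library from C57BL/6J mice, and no treatment separates them. In both, cortex was dissociated together with its meninges and cells were enriched magnetically with an antibody against CD140a, the protein that Pdgfra encodes, before capture on the BD Rhapsody system. The series asks how heterogeneous the fibroblasts of the hypomyelinated knockout cortex are. Nestin-Cre recombines mainly in the neural lineage, and the WT mice carried no Cre or floxed allele per the labels. Age, sex and how many animals went into each library are not among the labels, so differences in these cannot be told apart from genotype. With 1 library per genotype there is no replicate and no test: intervals are exact 95% intervals for counting error only, and ratios describe 2 libraries.

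Fibroblasts of the brain lie in the layers of the meninges and, inside the tissue, along larger vessels between the vessel wall and the astrocyte end-feet. Pial and perivascular fibroblasts make basement membrane and fibrillar collagen, and they express transporters that move solutes between cerebrospinal fluid, blood and brain. Arachnoid fibroblasts are known for gap junctions of the connexins Gjb2 and Gjb6 and for prostaglandin D synthase, Ptgds. Col15a1 encodes the collagen XV chain of basement membranes, Slc6a13 the GABA and taurine transporter GAT2, Cygb the oxygen-binding protein cytoglobin, and Fam210b a mitochondrial membrane protein.

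Windows upstream of 4 genes are shown because Col15a1 carried most of the gate and Fbln2, Tacr3 and Foxf2 stood well above the connexin-rich cells in both libraries, as described further on. Each is the 250 bases before a RefSeq transcript start (GRCm38.p6, plus strand, 5′ to 3′), in lower case with motif matches in capitals. Col15a1 lies at chr4:47207762-47208011, Fbln2 at chr6:91212514-91212763, Tacr3 at chr3:134828757-134829006 and Foxf2 at chr13:31625566-31625815.
Col15a1: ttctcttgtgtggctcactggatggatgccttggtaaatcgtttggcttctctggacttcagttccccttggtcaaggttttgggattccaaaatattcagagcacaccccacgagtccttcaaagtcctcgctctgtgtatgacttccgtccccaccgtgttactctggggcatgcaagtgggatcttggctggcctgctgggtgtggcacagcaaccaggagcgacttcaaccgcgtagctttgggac
Fbln2: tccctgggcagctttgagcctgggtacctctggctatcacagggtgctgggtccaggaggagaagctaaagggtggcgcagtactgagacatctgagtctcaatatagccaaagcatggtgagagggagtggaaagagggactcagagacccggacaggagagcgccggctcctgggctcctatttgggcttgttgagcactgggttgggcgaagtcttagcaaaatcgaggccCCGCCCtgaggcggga
Tacr3: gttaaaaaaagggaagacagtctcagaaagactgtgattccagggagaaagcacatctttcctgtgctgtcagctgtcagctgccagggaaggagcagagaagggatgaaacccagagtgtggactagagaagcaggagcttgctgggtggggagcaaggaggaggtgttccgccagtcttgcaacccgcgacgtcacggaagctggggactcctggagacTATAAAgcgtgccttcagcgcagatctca
Foxf2: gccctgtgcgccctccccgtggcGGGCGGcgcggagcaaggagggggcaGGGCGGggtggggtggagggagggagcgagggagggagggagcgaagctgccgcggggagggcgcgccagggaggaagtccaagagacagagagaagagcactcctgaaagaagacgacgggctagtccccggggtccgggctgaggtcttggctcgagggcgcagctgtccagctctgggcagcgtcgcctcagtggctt
On both strands 4 motifs were searched: the forkhead letters TGTTTAC, the GC box GGGCGG, the CCAAT box CCAAT and the TATA box TATAAA. Of 32851 windows of the same length in the RefSeq table, 3.17% held the forkhead letters, 32.7% the GC box, 33.8% the CCAAT box and 12.4% the TATA box. Among the windows shown, Foxf2 held 2 GC boxes, Fbln2 1 GC box on the opposite strand, Tacr3 1 TATA box, and Col15a1 none of the 4. The GC content was 53.6% for Col15a1, 58.8% for Fbln2, 54.4% for Tacr3 and 71.6% for Foxf2, against a median of 52.4% over all windows.

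The libraries differed in depth, in the cells kept and in base composition. They held 41982217 (N-PRα-KO) and 43459947 (WT) UMIs, of which 4196 and 10069 barcodes passed the filters. Members had medians of 6396 and 4890 UMIs, 2603 and 2056 genes, and 13.2% and 14.6% mitochondrial UMIs, and held 4629221 and 470697 UMIs in all. The libraries shared 105 barcodes, none of them a member in both. Log2 ratios between the libraries increased with the GC content of the last 500 bases of the transcript: over 5 bins of similar size of the tested genes, from low to high GC, the median in members was -0.49, -0.34, -0.15, 0.15 and 0.79. Subtracting each bin's median removes the trend. Of 114 named genes past 2-fold between the libraries, 29 were under 2-fold once it was removed, and values are given for list medians and for genes described below that crossed 2-fold or moved by over 1.5 times.

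Members were 15.9% of filtered cells in the N-PRα-KO library (666 of 4196, interval 14.8 to 17.0) and 0.894% in the WT library (90 of 10069, interval 0.719 to 1.098). Among non-dividing fibroblasts they were 71.5% (666 of 931, interval 68.5 to 74.4) and 16.7% (90 of 540, interval 13.6 to 20.1). Connexin-rich fibroblasts were 257 and 440 cells, and 8 and 10 cells were ties. The CD140a sort and the mitochondrial limit can set these shares: with a limit of 10% the share was 12.2% in the N-PRα-KO library and 0.105% in the WT library, where 2 of 1912 cells were members.

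Pdgfra, the gene deleted in the neural lineage and the antigen of the sort, was at 813 CPM (UMIs of the gene scaled to a fixed total of the summed members) among N-PRα-KO members and at 867 CPM among WT members. As a log2 ratio, N-PRα-KO over WT, this was -0.09 (interval -0.24 to 0.06), and 94.0% and 87.8% of members had a Pdgfra UMI. In filtered cells with under 0.1% fibrillar collagen UMIs, called low-collagen cells here, Pdgfra was at 89.6 and 2585 CPM. Summed oligodendrocyte precursor markers, a cell type that expresses Pdgfra, were at 1531 and 11095 CPM in the same low-collagen cells, and their part in that difference was not tested. The files do not state which exons the deletion removes.

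**Figure D1:**
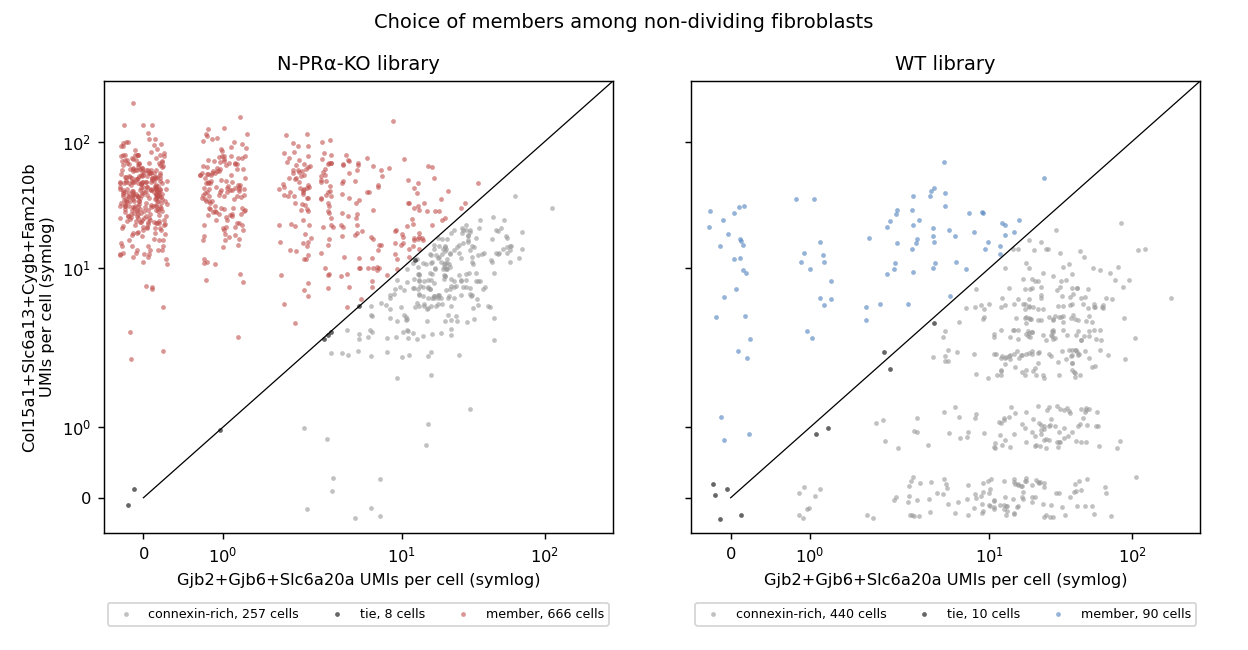
Each point is 1 non-dividing fibroblast, with its UMIs of Gjb2, Gjb6 and Slc6a20a on the x axis and of the 4 gate genes on the y axis (symlog axes, small random offsets so that equal values do not overlap), N-PRα-KO on the left and WT on the right. The line marks equal sums. The 666 N-PRα-KO members (red) lie above the line by a median of 37 UMIs and the 90 WT members (blue) by 11.5, and grey points are the 257 and 440 connexin-rich cells.

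The values that chose the members show how different the gate was in the 2 libraries. Col15a1 was at 4159.7 CPM in N-PRα-KO and 3004 CPM in WT members and had a UMI in 99.2% and 92.2% of them. Slc6a13 was at 976 and 147 CPM (97.7% and 43.3% of members), Cygb at 328 and 61.6 CPM (68.9% and 20%) and Fam210b at 569 and 104 CPM (79.7% and 36.7%). All 4 gate genes were detected together in 57.5% of N-PRα-KO members and in 3.33% of WT members. Col15a1 supplied 69.0% of the gate's UMIs among N-PRα-KO members and 90.6% among WT members. Without Col15a1, 60 N-PRα-KO members (9.01%) and 63 WT members (70.0%) would not have passed, so WT membership rested mostly on this 1 collagen gene.

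The gate sum exceeded the connexin sum by a median of 37 UMIs in N-PRα-KO members and 11.5 UMIs in WT members. Just inside the line, 7 N-PRα-KO and 5 WT members had a difference of 1 UMI, and just outside it 9 and 14 connexin-rich cells had a difference of 1 in the other direction. A difference of 3 or less was found in 3.45% and 17.8% of members. A UMI of Gjb2, Gjb6 or Slc6a20a was present in 54.1% and 72.2% of members. Fibrillar collagens held a median of 1.54% of UMIs in N-PRα-KO members and 3.61% in WT members, and the lowest members stood at 0.406% and 0.950%.

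Gate genes were also counted in cells that should lack them. In cells rich in C1qa, C1qb and C1qc and low in collagen, a macrophage and microglia profile, Col15a1 had a UMI in 63.3% of 627 N-PRα-KO and 14.4% of 320 WT cells, at median depths of 5669 and 2709.5 UMIs. With every cell thinned to 2000 UMIs the shares were 30.6% and 11.0%, against 97.4% and 88.8% of members. The thinned shares of members with Slc6a13 were 84.1% and 18.8%, against 8.32% and 0% of the C1q cells. A count of 0 in 245 cells allows a share of up to about 1.22%, by an approximate limit and not the exact interval used for other shares. Thinning left out 5 N-PRα-KO and 10 WT members that were shallower. Members were chosen for these UMIs, so the higher shares among them are a description.

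The label of pial and perivascular fibroblasts was checked against marker lists. The 7 pial markers summed to 6374 CPM in N-PRα-KO and 4848 CPM in WT members, against 2762 and 2745 CPM in connexin-rich fibroblasts. Of the 6 pial markers with enough counts, 4 were at least 2-fold higher in members in both libraries and 1, Rspo3, was at least 2-fold lower. Perivascular markers did not set members apart: the 12 markers summed to 5760.2 and 6497 CPM in members and 6942 and 6432 CPM in connexin-rich cells, and of 11 measured 2 were higher and 1 lower in both libraries. Arachnoid markers were lower in members, at 3704 against 27320.1 CPM (N-PRα-KO) and 1844 against 11869 CPM (WT), with 6 of 8 at least 2-fold lower in both. The 5 measured dural markers were all at least 2-fold lower in both libraries. Among all genes at 20 CPM, 3.12% were at least 2-fold higher and 4.28% lower in both. On these lists the members carried more of the pial markers than the comparison cells and not more of the perivascular ones, and position in the tissue was not measured. The cells are called Col15a1-gated fibroblasts or members here.

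Markers of other cell types were also present, and their part in the results was not tested. Summed microglial markers were at 896 CPM in N-PRα-KO and 431 CPM in WT members (6831 and 1494 CPM in low-collagen cells), and endothelial markers at 493 and 321 CPM. Mural markers were at 1583 and 1094 CPM, above the 1176 and 272 CPM of low-collagen cells although the rule caps 3 mural genes. Connexin-rich fibroblasts had 4436 and 2607 CPM. Astrocyte markers were at 2079 and 2163 CPM (8712 and 7125 CPM in low-collagen cells). Both sums include genes that are also on other lists used here. Vtn, Gja1 and Slc1a3 were at 1177, 403 and 826 CPM in 332 N-PRα-KO members (sub-cluster 0 below). In 78 WT members (sub-cluster 3 below) they were at 1126, 825 and 917 CPM. Choroid plexus markers stood at 1842 and 159 CPM, haemoglobin genes at 266 and 0 CPM, and oligodendrocyte precursor markers at 119 and 372 CPM. Haemoglobin genes were highest in sub-cluster 4 below. There Hbb-bs was at 1479 CPM and Hba-a1 at 1017 CPM, against 24.1 and 18.5 CPM in the other members. In WT members Cspg4, Mog, Cd163, Kcnj8, Higd1b, Myh11 and all haemoglobin genes were at 0, whereas in the larger N-PRα-KO group no listed marker was at 0.

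Against connexin-rich fibroblasts of the same library, 6 of 15 basement membrane genes were at least 2-fold higher in members in both libraries, and 7 of 17 solute carriers and 8 of 16 BMP and Wnt genes at least 2-fold lower. Because the gate divides these same cells, the differences describe what accompanies it. Of 3187 genes at 50 CPM or more in 1 of the classes in both libraries, 117 (3.67%) were at least 2-fold higher in members in both libraries and 149 (4.68%) at least 2-fold lower. Within that set, 202 genes were higher in the N-PRα-KO library and 173 in the WT library, so the shared genes were 57.9% and 67.6% of each list. Of the 232 and 217 genes that were lower, the shared genes made up 64.2% and 68.7%. Over all genes tested in a library alone, 7.74% were higher and 7.14% lower in members of the N-PRα-KO library, and 5.77% and 7.43% in those of the WT library. The classes of 1 library share its preparation and free RNA.

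Tacr3, the neurokinin B receptor, was at 119 CPM in N-PRα-KO members and 0.593 CPM in N-PRα-KO connexin-rich cells. In the WT library it was at 97.7 and 12.6 CPM. A Tacr3 UMI was found in 39.6% and 26.7% of members and in 0.389% and 4.09% of connexin-rich cells. It marked members in both libraries, with log2 ratios of 6.06 and 2.96, the first resting on a single UMI in the comparison cells and set against the floor of 3 counts where fewer were counted. Fbln2, the matrix protein fibulin-2 of basement membranes and elastic fibres, was at 952 against 122 CPM in the N-PRα-KO and 622 against 35.5 CPM in the WT library, log2 ratios of 2.96 (interval 2.76 to 3.17) and 4.13 (interval 3.77 to 4.51).

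The forkhead factors Foxf2 and Foxq1, whose genes lie near each other on chromosome 13, were both among the 12 highest genes. Foxf2 was at 280 against 50.4 CPM (N-PRα-KO) and 202 against 43.1 CPM (WT), with a UMI in 74.3% and 54.4% of members. Foxq1 was at 147 against 24.9 CPM and at 153 against 31.5 CPM. Their ratios between members and connexin-rich cells were alike in the libraries, with log2 values of 2.47 and 2.23 for Foxf2 and 2.57 and 2.28 for Foxq1. Foxc2, another forkhead factor, was lower in members, at 9.50 against 94.9 CPM (N-PRα-KO) and 85.0 against 246 CPM (WT). The other genes named by the same rule were St8sia1 (GD3 ganglioside synthase), Slc7a5 (a large neutral amino acid transporter), Spry4 (an inhibitor of receptor tyrosine kinase signalling), Ephb1 (an ephrin receptor), Lpl (lipoprotein lipase), Frem1 (a basement membrane protein), Sh3gl3 and Rgl1. Their log2 ratios ran from 2.49 to 3.70 (N-PRα-KO) and from 2.26 to 4.43 (WT). Il33, an alarmin cytokine, also stood higher in members, at 126 against 11.3 CPM and 36.1 against 2.70 CPM.

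Genes lower in members were led by transporters of the arachnoid. Slc22a2, an organic cation transporter, was at 3.89 against 130.4 CPM (N-PRα-KO) and at 0 against 78.2 CPM (WT). Slc13a4, a sulfate transporter, was at 43.2 against 521 CPM and at 27.6 against 409 CPM, and Slc13a3, a dicarboxylate transporter, at 9.51 against 176 CPM and at 2.12 against 70.5 CPM. Ptgds, prostaglandin D synthase, was at 2665 against 25749 CPM (N-PRα-KO) and at 232 against 9919 CPM (WT). Ptgds was also at 1673 and 168 CPM in low-collagen cells, and 99.8% of N-PRα-KO C1q cells had a UMI of it, so its level in N-PRα-KO members was less than 2-fold above that in cells outside the fibroblasts. Alcam (a cell adhesion molecule), Igf1 (insulin-like growth factor 1), Crabp2 (a retinoic acid carrier), Fmod (fibromodulin), Cxadr, Adam12 and Sidt1 were also among the 12 lowest, with log2 ratios from -3.86 to -3.22 (N-PRα-KO) and from -3.79 to -2.77 (WT).

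**Figure D2:**
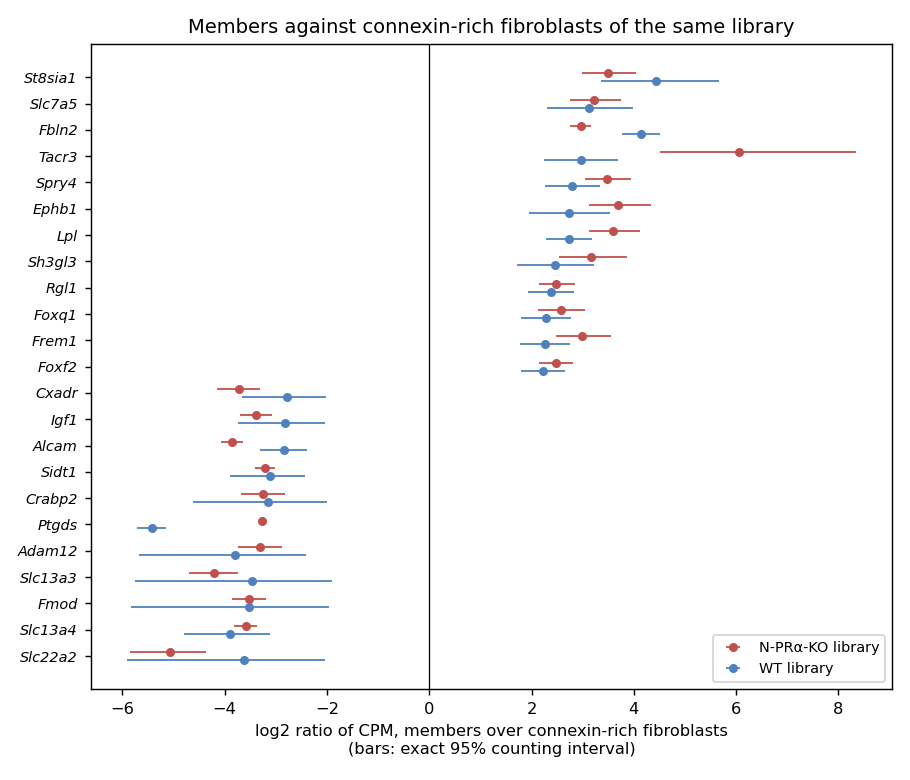
Log2 ratio of CPM in members over connexin-rich fibroblasts for the genes named above from the 12 highest and the 12 lowest by the naming rule, with exact 95% counting intervals, N-PRα-KO in red and WT in blue. The genes plotted lie on the same side of 0 in both libraries, as the rule requires, and the widest intervals belong to genes with few WT UMIs, such as Slc22a2 and Fmod.

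Basement membrane genes were higher in members than in connexin-rich cells in 6 of 15, and 5 of 15 matricellular genes were lower. Of the 15 basement membrane genes, the 6 were at least 2-fold higher in both libraries and none was lower, with medians of 0.86 and 0.89 against 0.06 and 0.04 over all genes at 20 CPM, of which 3.12% were higher and 4.28% lower in both. Col4a1 was at 7376 against 1113 CPM in the N-PRα-KO and 5156 against 1355 CPM in the WT library. Col4a2 was at 3495 against 687 CPM and 1389 against 394 CPM, and the laminin chain Lama1 at 601 against 183 CPM and 283 against 79.5 CPM. Col18a1, Lamb1 and Lamc1 completed the 6. Lama2, another laminin chain, was not higher in members, at 529 against 609 CPM and 385 against 459.6 CPM. The 5 matricellular genes were at least 2-fold lower in both libraries and 1, Tgfbi, was higher, with medians of -1.51 (N-PRα-KO) and -0.14 (WT).

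Solute carriers and BMP and Wnt genes past 2-fold in both libraries were lower in members. Among all genes at 20 CPM, 4.28% were lower and 3.12% higher in both. Of 17 measured solute carriers and pumps outside the gate, 7 were at least 2-fold lower in both libraries and none higher, with medians of -1.65 and -0.92. They included Slc7a11, the cystine and glutamate exchanger, at 410.4 against 1851 CPM and 618 against 2229 CPM. Slc6a13, although a gate gene, did not separate the classes: it was at 976 against 934 CPM in the N-PRα-KO and 147 against 176 CPM in the WT library. Of 16 BMP and Wnt genes 8 were lower in both and none higher, with medians of -1.20 and -1.25. Among them were the ligand Bmp6 (141 against 775 CPM and 142 against 708 CPM), the Wnt antagonist Sfrp1 (27.9 against 240.1 CPM and 65.9 against 313 CPM) and Wnt4 (19.2 against 190.3 CPM and 12.7 against 84.5 CPM). Of 19 transcription factors of the meninges, 5 were lower and 1 higher in both, Tbx18, at 873 against 423 CPM and 1205 against 536 CPM.

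Between the libraries, members of the N-PRα-KO library had lower immediate early transcripts. Of 10 iron and oxygen handling genes outside the gate, 4 were at least 2-fold higher and none lower. The medians of both lists had the same sign in connexin-rich fibroblasts, at -0.99 and at 0.63 (with Cygb kept). The genes past 2-fold among fibrillar collagens outside the rule and basement membrane genes fell under it once a trend with base composition was removed. Of 4119 genes that reached 50 CPM in at least 1 of the libraries, 608 (14.8%) were at least 2-fold higher and 386 (9.37%) at least 2-fold lower in N-PRα-KO members. A further filter kept 512 genes whose level in members was over 3 times that in low-collagen cells, in the library where the gene was higher. Of these, 81 (15.8%) were higher and 103 (20.1%) lower. Gate genes summed to 311 CPM in N-PRα-KO and 82.6 CPM in WT low-collagen cells, so the filter need not act alike in both directions. These 2 shares describe the filtered set. At the 20 CPM used for gene lists, 18.1% of 7287 genes were higher and 9.54% lower, with a median of 0.01. Scaling by the median ratio of 2783 genes moved all ratios by 0.11, since that median was -0.11.

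The genes most above WT among those over 3 times their low-collagen level were membrane proteins, matrix genes and a transcription factor. Tbx3os1, a transcript antisense to the Tbx3 locus, was at 98.9 CPM in N-PRα-KO members and had no UMI in WT members, at least 15.5-fold higher against a floor of 3 counts over all WT members (6.37 CPM). The sources used here do not say whether counting used strand, so its UMIs cannot be told apart from those of an overlapping gene. Ajap1, an adherens junction associated protein, was at 312 and 25.5 CPM (log2 ratio 3.61, interval 2.80 to 4.57), and Col7a1, the collagen of anchoring fibrils, at 191 and 19.1 CPM (3.32). S1pr3, a sphingosine 1-phosphate receptor, was at 186 and 19.1 CPM (3.28) and Unc5b, a netrin receptor, at 90.3 and 10.6 CPM (3.09). Meox1, a mesenchymal homeobox factor, was at 70.9 and 6.37 CPM, the latter from 3 UMIs (3.47, interval 1.91 to 5.76). Fam163a and Chp2 (2 WT UMIs each) and Cmc2 (1 WT UMI) were at 98.7, 96.1 and 74.96 CPM in N-PRα-KO members. C1qtnf1 and Dcbld1 followed with log2 ratios of 3.69 and 3.61. With the GC trend removed C1qtnf1 stood at 2.89, Col7a1 at 2.53, Unc5b at 2.29, Tbx3os1 at 3.16 and Fam163a at 3.16. In low-collagen cells the ratio of Col7a1 was 4.35, of S1pr3 3.62, of Ajap1 1.17, of Dcbld1 -0.84 and of Meox1 1.16.

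Lgals1, the lectin galectin-1, was at 947.5 and 117 CPM in members (3.02, interval 2.64 to 3.43), 2.23 with the GC trend removed. In low-collagen cells its ratio was larger, 5.51, at 90.1 and 1.98 CPM. Secreted and lipid-binding products were also higher in N-PRα-KO members. Tgfbi, a TGF-beta induced matrix protein, was at 1306 and 204 CPM (2.68) and Spp1, osteopontin, at 346 and 95.6 CPM (1.86). Apod, apolipoprotein D, was at 8090.1 and 1598 CPM (2.34) and Ptgds at 2665 and 232 CPM (3.52, or 2.73 with the trend removed). The same genes were higher in low-collagen cells of that library, with ratios of 3.68 for Tgfbi, 2.59 for Spp1, 3.52 for Apod and 3.32 for Ptgds.

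Lower genes were led by early-response factors and by matrix and surface proteins. Klf4, a zinc finger factor, was at 55.7 and 597 CPM (-3.42, interval -3.67 to -3.17) and Fos, a subunit of AP-1, at 258 and 2161 CPM (-3.06, interval -3.19 to -2.94). A Fos UMI was found in 39.6% of N-PRα-KO and 84.4% of WT members, and in 21.2% and 77.5% once thinned. Klf2 was at 79.7 and 582 CPM (-2.87), Nr4a2 at 6.91 and 55.2 CPM (-3.00), Ogn, the proteoglycan osteoglycin, at 79.1 and 595 CPM (-2.91), Dpp4, a surface peptidase, at 6.48 and 57.4 CPM (-3.15) and Cd55, a complement regulator, at 11.9 and 82.9 CPM (-2.80). In low-collagen cells Klf4, Klf2, Ogn, Dpp4 and Cd55 went the other way, with ratios of 1.61, 1.48, 1.102, 1.16 and 1.32. Lower genes were ranked only if over 3 times their low-collagen level in the WT library, which favours this sign.

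The other 5 of the lowest 12 depended on 13 cells, 6 N-PRα-KO and 7 WT members, that formed a sub-cluster of their own. Nov, a matricellular protein, was at 17.9 and 232 CPM (-3.69) in all members and at -1.05 without these cells. The bicarbonate transporter gene Slc4a10 moved from -3.14 to -1.02 and the forkhead factor gene Foxc2 from -3.16 to -2.23. Plagl1, an imprinted zinc finger gene, turned from -2.78 to 0.28. Shisa3 was at 15.6 and 149 CPM in all members, and without these cells it was at or below 3 UMIs in both libraries, so no ratio is given.

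The immediate early genes were lower as a group in N-PRα-KO members. Of 16 measured, 13 were at least 2-fold lower and 1 higher (Ier2, 1.12, or 0.33 with the GC trend removed), with a median of -1.77 against 0.01 over all genes, and -1.74 with the GC trend removed. Among all genes at 20 CPM, 9.54% were lower and 18.1% higher. Atf3 was at 9.51 and 134 CPM, Dusp1, a MAP kinase phosphatase, at 66.5 and 306 CPM, and Egr1 at 426 and 918 CPM (-1.11, or -0.76 with the trend removed). Of the 13, 11 were at least 2-fold lower in each of the 3 large N-PRα-KO sub-clusters taken alone. These are parts of the same N-PRα-KO members, set against the same WT members, and are not replicates. The median of the list was -0.99 in connexin-rich fibroblasts and 0.59 in low-collagen cells. Within each library the list was also lower in members than in connexin-rich cells, with medians of -1.55 (N-PRα-KO) and -0.99 (WT).

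Col1a1, Col1a2 and Col3a1 entered the rule as a minimum, so their levels are a description: Col1a1 was at 5149 and 13567 CPM (-1.40) and Col3a1 at 5761 and 9503 CPM. Of the 4 other fibrillar collagens measured, 2 were at least 2-fold lower and none higher, with a median of -0.98. Among all genes at 20 CPM, 9.54% were lower and 18.1% higher. Col5a2 was at 568 and 1211 CPM (-1.09) and Col11a1 at 129.6 and 329 CPM (-1.35). With the GC trend removed these stood at -0.75 and -0.85, none of the 4 was past 2-fold and the median was -0.56. Col27a1 was at 118 and 65.9 CPM. Before the trend was removed, collagen VI differed little between the libraries: Col6a1 was at 1613 and 1489 CPM, Col6a2 at 1167 and 1130.2 CPM and Col6a3 at 384 and 376 CPM. The log2 ratio of Col6a3 was 0.03, and -0.76 with the trend removed. Col12a1, a fibril-associated collagen, was at 169 and 572 CPM (-1.76).

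Basement membrane genes were above WT in 11 of 15. Of these 15, 4 were at least 2-fold higher and none lower, beside 18.1% higher and 9.54% lower among all genes at 20 CPM. The list median was 0.52, and 0.54 with the GC trend removed, against 0.01 over all genes. Col18a1 was at 574 and 217 CPM (1.41), Col4a2 at 3495 and 1389 CPM (1.33), Lama1 at 601 and 283 CPM (1.09) and Lamb2 at 84.2 and 25.5 CPM (1.72). With the trend removed these 4 stood at 0.61, 0.54, 0.29 and 0.93, all under 2-fold, while Lamc1 went from 0.992 to 1.14. Col4a1 was at 7376 and 5156 CPM (0.52) and Nid1 at 1710.4 and 2745 CPM (-0.68). In low-collagen cells the median of the same list was 1.79, and in connexin-rich fibroblasts 0.41.

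**Figure D3:**
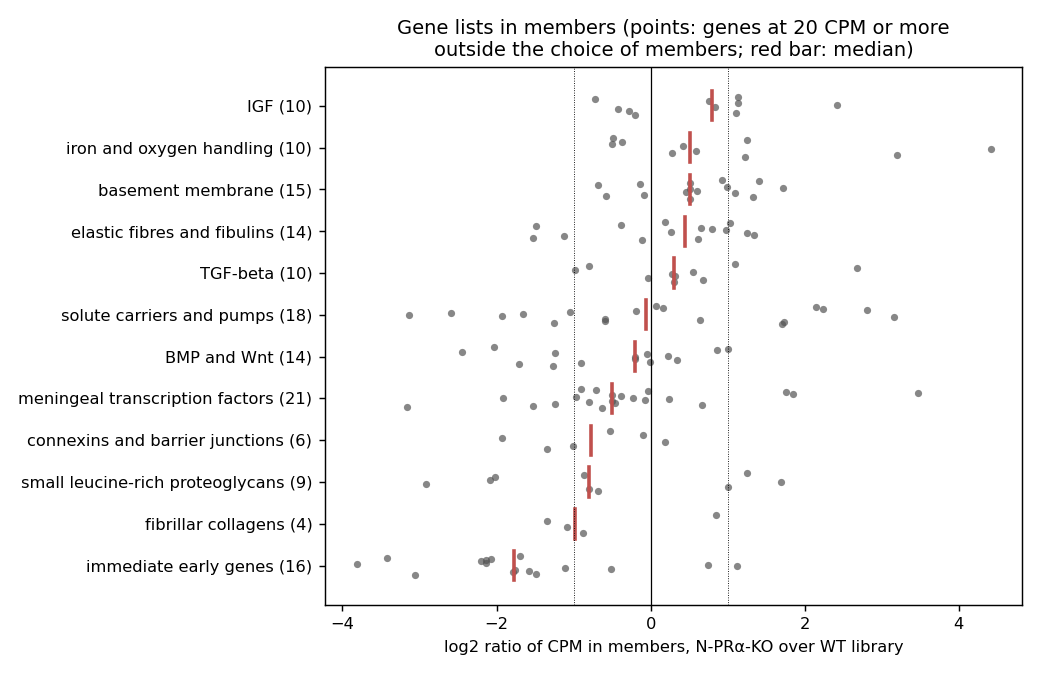
Log2 ratio of CPM in members, N-PRα-KO over WT, for 12 gene lists, with 1 point per gene at 20 CPM or more in either library that was not used to choose the members, the number of such genes in parentheses, and a red bar at the median. Dotted lines mark 2-fold. The immediate early genes lie furthest to the left (median -1.77) and the IGF list furthest to the right (0.80).

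Proteoglycans and elastic fibre genes divided in both directions, beside 18.1% of all genes at 20 CPM at least 2-fold higher and 9.54% lower. Of 9 small leucine-rich proteoglycans 3 were at least 2-fold lower and 2 higher (median -0.80, and -0.84 with the GC trend removed). Dcn, decorin, was at 2287 and 3688 CPM, Lum, lumican, at 595 and 1037 CPM, and Ecm2 at 55.7 and 23.4 CPM (1.25). Bgn, biglycan, was at 1404 and 703 CPM (0.998, just under 2-fold, or 0.20 with the trend removed). Of 14 elastic fibre and fibulin genes 3 were higher and 3 lower (median 0.44, and 0.12 with the GC trend removed). Eln, elastin, was at 609 and 255 CPM (1.26), Fbln5 at 82.1 and 236 CPM (-1.52) and Mfap5 at 36.5 and 102 CPM (-1.48). Without the 13 cells named above Mfap5 stood at -0.84, and with every cell thinned to 2000 UMIs at -0.19. At a collagen threshold of 0.2% Fbln5 stood at -0.51 and Eln at 2.02. Of 14 matricellular genes 3 were higher and 4 lower (median -0.23, and -0.36 with the GC trend removed). Thbs1 was at 19.2 and 104 CPM (-2.44) and Fn1, fibronectin, at 102 and 266 CPM (-1.37). Without the 13 cells Thbs1 stood at -1.59.

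Solute carriers showed large differences of opposite sign. Of 18 measured, leaving out Slc6a13 and Slc6a20a, which chose the members, 6 were at least 2-fold higher and 6 lower. Among all genes at 20 CPM, 18.1% were higher and 9.54% lower. The median of the 18 was -0.06, and it became 0.51 without the 13 cells and 0.33 with the GC trend removed. Slc2a1, the glucose transporter GLUT1, was at 114 and 12.7 CPM (3.16) and Slc22a8, an organic anion transporter, at 453 and 136 CPM (1.74). Abca8a, a lipid transporter of the ABC family, was at 210 and 44.6 CPM (2.23), and Abcc9, a subunit of potassium channels, at 44.5 CPM against 2 WT UMIs. Slc2a1 had a ratio of 2.80 in low-collagen cells, while Abca8a had one of 0.18. Slc38a2, an amino acid transporter, was at 115 and 438 CPM (-1.93), and Slc22a6 at 177 and 423 CPM (-1.26, or -0.92 with the trend removed).

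Iron and oxygen handling genes, leaving out the gate gene Cygb, were at least 2-fold higher in 4 of 10 and lower in none. For this and the next 3 lists, the shares over all genes at 20 CPM were 18.1% higher and 9.54% lower. Their median was 0.51, and 0.70 with the GC trend removed. With Cygb kept, the list median was 0.59 in members, 0.63 in connexin-rich fibroblasts and 1.32 in low-collagen cells. Trf, transferrin, was at 234 and 25.5 CPM (3.20), Cp, ceruloplasmin, at 783 and 336 CPM (1.22) and Sod3, extracellular superoxide dismutase, at 461 and 193 CPM (1.25). Ftl1, ferritin light chain, was at 181 and 8.50 CPM (4.41), 3.62 with the trend removed, and with a larger ratio of 6.67 in low-collagen cells. Ferritin light chain has near-identical copies in the genome, so its count is uncertain. Of 10 IGF genes 4 were higher and none lower, with a median of 0.80, 0.30 with the GC trend removed and 0.53 in connexin-rich fibroblasts. Among the 4 were the binding proteins Igfbp4 (1915 and 871 CPM, 1.14) and Igfbp7 (584 and 266 CPM, 1.14), both at 0.99 with the trend removed. Metallothionein and glucocorticoid response genes were higher in 5 of 7 with a median of 1.35, and 1.57 with the GC trend removed. Their median was 1.87 in connexin-rich fibroblasts and 2.61 in low-collagen cells. Glycolysis genes were higher in 4 of 10, with a median of 0.69 that became 0.03 with the GC trend removed, beside 0.73 in connexin-rich fibroblasts.

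Signalling genes differed in both directions, beside 18.1% of all genes at 20 CPM at least 2-fold higher and 9.54% lower. Of 14 BMP and Wnt genes 5 were at least 2-fold lower and 1 higher, Dkk3, at 410.2 and 204 CPM (1.01, or 0.86 with the trend removed). Their median was -0.20, 0.09 without the 13 cells and -0.46 with the trend removed. Bmp2 was at 96.6 and 232 CPM (-1.26, or -0.92 with the trend removed) and Bmp4 at 57.03 and 187 CPM (-1.71). Of 10 TGF-beta genes 2 were higher, Tgfbi and Smad3 (1.098, or 0.95 with the trend removed), and none lower. Their median was 0.31, or 0.44 with the trend removed. Of 9 chemokines and cytokines 1 was higher, Il33, at 126 and 36.1 CPM (1.81), and 2 lower, Ccl2 (7.35 and 38.2 CPM) and Ccl7 (2.38 and 23.4 CPM). With cells thinned to 2000 UMIs the log2 ratio of Ccl2 moved from -2.38 to -0.68 and that of Ccl7 from -3.30 to -2.19. Cxcl12, a chemokine of the pia, was at 2725 and 2560.03 CPM (0.09). Among retinoic acid genes Aldh1a1 was lower, at 493 and 1069 CPM (-1.11, or -0.97 with the trend removed), and Aldh1a2 was at 426 and 391 CPM.

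Of 21 transcription factors of the meninges, 3 were at least 2-fold higher, Meox1, Prrx2 and Ebf1, and 4 lower. Over all genes at 20 CPM, 18.1% were higher and 9.54% lower. The list median was -0.50, -0.35 with the GC trend removed and -0.45 in connexin-rich fibroblasts. Prrx2 moved from 1.85 to 0.42 with cells thinned to 2000 UMIs and to 1.05 with the trend removed. Foxd1 was at 54.7 and 157 CPM (-1.52) and Foxp2 at 42.1 and 99.9 CPM (-1.25, or -0.90 with the trend removed). Foxc1 was at 393 and 610 CPM (-0.63), Tbx18 at 873 and 1205 CPM (-0.47) and Zic1 at 644 and 914 CPM (-0.50). Of 6 connexin and junction genes, leaving out Gjb2 and Gjb6, which chose the members, 3 were lower and none higher (median -0.77, or -0.43 with the trend removed). Among them was Gja1, connexin 43, at 424 and 1077 CPM (-1.34). With Gjb2 and Gjb6 kept, the list median was -0.77 in members and -0.70 in connexin-rich fibroblasts.

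Clustering the 756 members together, without integration of the libraries, gave 6 sub-clusters, and most separated by library. Leading genes were taken from the same cells that were clustered and are descriptions. Sub-cluster 0 held 332 N-PRα-KO members (49.8%) and no WT member. It was led by Tbx3os1, Rapgef5, Chp2, Abcc9 and Meox1. Its cells had Gjb2 at 12.2 CPM, Pdgfra at 1129 CPM, Fam210b at 797 CPM and Col1a1 at 3637 CPM.

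Sub-cluster 1 held 164 N-PRα-KO members (24.6%) and 3 WT members, with higher Gjb2, Gjb6 and Slc6a20a CPM than sub-clusters 0 and 2. It was led by Sidt1, Fibin, Wnt4, Slc13a4 and Crispld2, of which Sidt1 and Slc13a4 were also among the 12 genes lowest in members against connexin-rich cells. In its N-PRα-KO cells Gjb2 was at 313 CPM, Col1a1 at 10036 CPM, Ptgds at 6062 CPM, Dcn at 3721 CPM and Serping1, a complement inhibitor, at 415 CPM. Sub-cluster 2 held 140 N-PRα-KO members (21.0%) and 1 WT member and was led by Piezo2, a mechanically gated channel, the transcription factors Prdm1 and Runx1, the collagen gene Col28a1, and Lrrc55. Cygb was at 529.5 CPM there, against 312 CPM in sub-cluster 0 and 180.2 CPM in the N-PRα-KO cells of sub-cluster 1.

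Sub-cluster 3 held 78 of the 90 WT members (86.7%) and no N-PRα-KO member. It was led by Atf3, Fgfbp1, Klf4, Fos and Nr4a2, 3 of which are on the immediate early list. Col1a1 was at 14285 CPM, Gjb2 at 387 CPM and Col15a1 at 3462 CPM in these cells. Gjb6 was at 91.7 CPM, between the 236 CPM of the N-PRα-KO cells of sub-cluster 1 and the 34.1 and 39.1 CPM of sub-clusters 0 and 2. In Slc6a13, at 163 CPM, the WT cells stood below all 3, which had 1147, 1064.5 and 736 CPM.

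Against all WT members, the 3 large N-PRα-KO sub-clusters were alike in the number of genes past 2-fold. In sub-cluster 0, 16.1% of genes at 50 CPM were higher and 11.1% lower. The shares were 12.8% and 10.5% in sub-cluster 1 and 15% and 10.9% in sub-cluster 2. Of the 608 genes higher in all N-PRα-KO members, 424 (69.7%) were past 2-fold in each of the 3 taken alone, and of the 386 lower genes 211 (54.7%). The 3 hold most of the N-PRα-KO members that gave these calls and share the WT members, so they are not replicates. Lgals1 was at 848, 866 and 1360.3 CPM in sub-clusters 0, 1 and 2 and Tgfbi at 1523, 1039.6 and 1357 CPM, all above the WT members. Col1a1, at 3637, 10036 and 3246 CPM, was more than 2-fold below the WT level of 13567 CPM in sub-clusters 0 and 2 only.

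**Figure D4:**
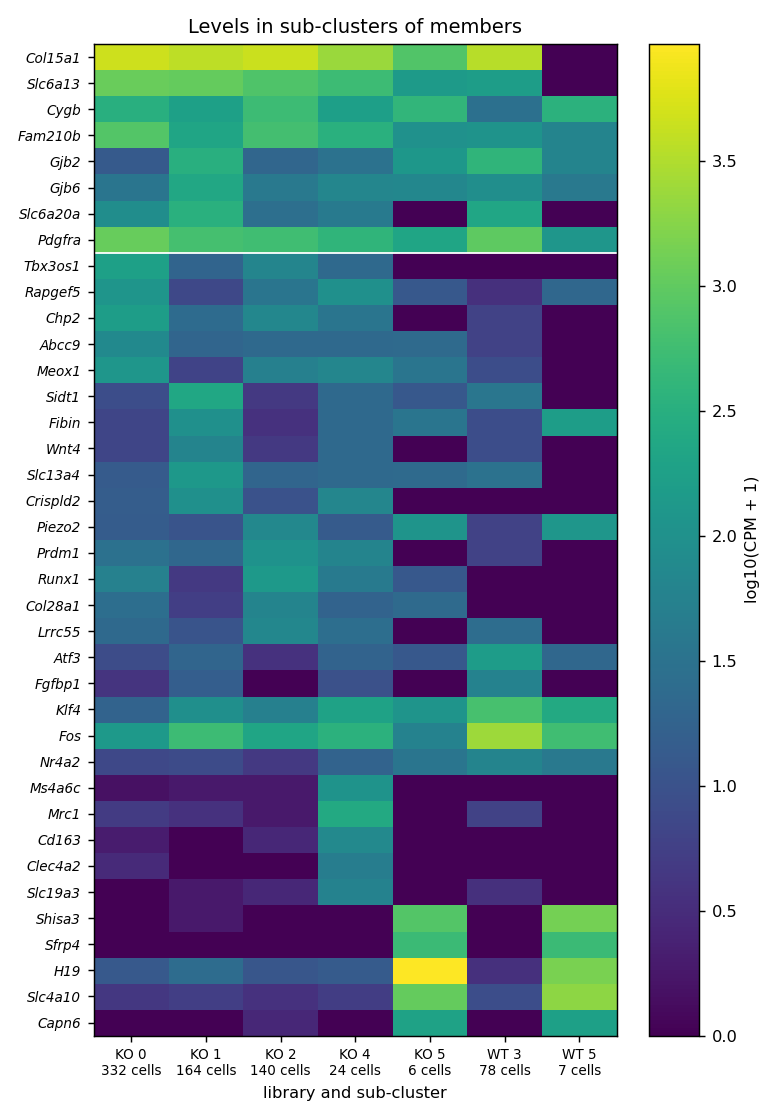
Colour gives log10(CPM + 1) of the gate, connexin-side and leading genes in the sub-clusters, split by library, for groups of at least 5 cells (WT cells of sub-clusters 1, 2 and 4, at most 3 each, are not drawn). N-PRα-KO cells fill columns 0, 1 and 2, WT cells column 3, and Col15a1 is dark, at 0 CPM, in the 7 WT cells of sub-cluster 5.

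The 2 smallest sub-clusters held cells that went against the label. Sub-cluster 4, with 24 N-PRα-KO members and 1 WT member, was led by the macrophage genes Ms4a6c, Mrc1, Cd163 and Clec4a2 and by Slc19a3, and its N-PRα-KO cells had the endothelial marker Cldn5 at 1226 CPM, against 74.95 CPM in sub-cluster 0. Its median depth was 8219 UMIs, against 6396 UMIs over all N-PRα-KO members. Sub-cluster 5, with 6 N-PRα-KO and 7 WT members, was led by Shisa3, Sfrp4, H19, Slc4a10 and Capn6, and had Mgp, a dural marker, at 5148 and 3379 CPM. Col15a1 was at 783 CPM in its N-PRα-KO cells and at 0 in its WT cells, which entered the gate mostly through Cygb, at 358 CPM. It made up 0.901% of N-PRα-KO and 7.78% of WT members. Leaving out sub-cluster 4 changed the counts of 608 higher and 386 lower genes to 596 and 387, and leaving out sub-cluster 5 to 605 and 361.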

How the data were processed

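The deposited files hold raw UMI counts, with cells in rows and genes in columns. The authors ran the BD Rhapsody WTA Analysis Pipeline to obtain them, per the file headers, in version 1.10 (N-PRα-KO) and 1.10.1 (WT), and it also picked the barcodes. The submitters' processing notes name GRCm38 and mm10, while the sources used here do not give the aligner. The tables list 24820 and 22374 genes, 21599 of them in both, and a gene missing from 1 table was taken as 0 there.

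UMIs were summed over members, connexin-rich fibroblasts and low-collagen cells per library and scaled to CPM (Python 3.11.15, numpy 2.4.6). Levels carry exact Poisson, shares exact Clopper-Pearson and log2 ratios exact conditional 95% intervals (scipy 1.17.1), which cover counting error only. Counts under 3 were set to 3 for ratios, and no ratio is given where both were at or under 3. The ratio script was tested on simulated data. Sub-clusters came from 1000 variable genes, 20 components, 20 neighbours and Leiden resolution 0.5 (scanpy 1.11.5, leidenalg 0.10.2). Doublets were kept: Scrublet called 10 of 4196 cells (0.238%) in the first library and 174 of 10069 (1.73%) in the other, 2 members in each. The GC trend was the median ratio over 5 equal bins of GC content of the last 500 bases of the longest GENCODE transcript.

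Members, gene lists and rules were chosen with earlier results of these data known. Named genes were the gate and connexin-side genes and Pdgfra, and the 12 highest and 12 lowest ratios of each comparison at 50 CPM or more. Between the libraries, these were only genes over 3 times their low-collagen level in the library where the gene was higher. The 4 largest ratios of each list at 20 CPM or more and 5 leading genes per sub-cluster were also named. Some genes that the rule names are not reported here. Other list members appear as examples chosen after their values were seen. Mitochondrial, ribosomal protein, haemoglobin, predicted and sex-linked genes were left out of the rankings. Alternatives varied the mitochondrial limit, the collagen threshold, the gate margin, doublets, depth, level filter, scaling and GC trend. Leaving out sub-clusters 4 or 5 was added after seeing the data.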

Additional observations from a re-analysis of the deposited data

Results flagged for a closer look

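For 6 genes that ranked among the lowest in N-PRα-KO against WT members, the cells low in fibrillar collagens of the same libraries went the opposite way by at least 2-fold. The ranking kept only genes whose level in WT members was over 3 times that in WT low-collagen cells. A low WT level in low-collagen cells was thus part of the choice and favours the opposite sign, which is a description. The log2 ratios of N-PRα-KO over WT in members and in low-collagen cells were -3.42 and 1.61 for Klf4, -2.87 and 1.48 for Klf2, -2.80 and 1.32 for Cd55, -3.15 and 1.16 for Dpp4, -2.91 and 1.102 for Ogn and -3.16 and 1.05 for Foxc2. Low-collagen cells hold many cell types whose shares differ between the libraries. Tbx3, a T-box factor gene, was higher in members than in connexin-rich fibroblasts among N-PRα-KO cells, with a log2 ratio of 2.65 (89.2 and 14.2 CPM), and lower among WT cells, with -1.56 (21.2 and 62.5 CPM). It was noticed for this difference after its values were seen. With 1 library per genotype none of these differences was tested.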

How the results depend on the processing

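The share of members moved by more than its counting interval with the mitochondrial limit: at a limit of 10% it was 12.2% for N-PRα-KO and 0.105% for WT, and 10.7% in the N-PRα-KO library with no limit. Requiring a gate sum of at least 2 times the connexin sum gave 0.715% in the WT library. Counts of genes followed the level filter. At 20 CPM, 1319 genes were higher and 695 lower in N-PRα-KO members, at 100 CPM 272 and 209, and with no filter 1762 and 1949, against 608 and 386. Genes higher in members than in connexin-rich cells numbered 191 at 20 CPM and 271 with no filter, against 117, and lower genes 262 at 20 CPM, 87 at 100 CPM and 367 with no filter, against 149. At the 10% limit the 2 WT members were too few, under 20, for gene ratios, which are not given. Of 1581 recomputed ratios of named genes between the libraries, 1428 moved by at most 0.5 on the log2 scale and 151 by more. A further 2 that were past 2-fold turned, both without sub-cluster 5, Plagl1 to 0.28 and Col8a2 from -1.63 to 0.29. Thinning to 2000 UMIs moved 50 and left 82, removing the GC trend moved 41 and left 90, and median-ratio scaling moved 0. Against connexin-rich cells, 24 genes were recomputed in each library and none turned. The stricter gate moved 14 N-PRα-KO and 3 WT ratios, and thinning 9 and 14. Of 347 recomputed list medians 7 moved by over 0.5, and 25, from 9 lists, changed sign, all of them from a value under 2-fold: with the GC trend removed prostaglandins went from 0.62 to -0.17, collagen enzymes from 0.36 to -0.06 and chemokines from 0.09 to -0.14. No paired analysis was possible because each genotype had 1 library. The 470697 UMIs of the 90 WT members set the precision.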
